A study of Mus musculus with 8 samples.

Results

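This account follows 38 mouse genes of meiotic recombination and division through purified round spermatids, the haploid cells that follow meiosis. The members are the genes of a named list, each represented by the array probe that carries its symbol and, where several do, by the one with the highest mean signal over 8 arrays. Of the 38, 36 had a probe, out of 19057 genes named on the array, and 25 were detected well enough to be tested. RNA came from wildtype mice (4 arrays), from mice with an shSLX RNAi construct (2 arrays) and from mice with an shSLY RNAi construct (2 arrays), all aged 8 weeks. These constructs express short hairpin RNAs against the multicopy Slx and Slxl1 genes on the X chromosome and the multicopy Sly genes on the Y. The wildtype animals carried no transgene and were matched for age and strain. Neither the strain, nor the number of animals per sample, nor the promoter that drives the hairpins is stated in the sources used here. Where nothing says that arrays came from separate animals, a p-value measures only the spread between these arrays, which may be technical.

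In meiotic prophase, homologous chromosomes pair, a protein axis built on cohesin and HORMA-domain proteins is joined along its length by the synaptonemal complex, and programmed DNA breaks made by SPO11 are repaired by recombination, some of them as crossovers. Unpaired parts of the X and Y chromosomes are silenced in the sex body by a DNA damage signalling pathway, and cyclin-dependent, Polo-like and Aurora kinases then drive both meiotic divisions. Transcripts of many of these genes are made in spermatocytes, and some are still present in the round spermatids that result.

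All values are normalized log2 signals unless another unit is named, and a difference is a log2 fold change from limma, given ± its standard error (SE) and fitted with the slide of each array in the model over all 8 arrays. Wildtype 2 lay alone on its slide and so has no weight in any difference. The shSLY arrays are in effect set against wildtype 1, and the shSLX arrays against wildtype 3 and 4. The deposited tables disagree over 6 of the 8 columns: 4 columns of the non-normalized table hold the ranks of another sample and 2 match no column of the series matrix, which was used here under its sample names. Arrays correlated at 0.973 or more with each other. The targeted gene Sly gave 10.52, 10.36, 10.05 and 10.04 in wildtype 1 to 4, 9.45 and 8.93 in the arrays labelled shSLX and 10.56 and 10.26 in those labelled shSLY. It was lower in shSLX (limma adjusted p = 0.0377) and not past the threshold in shSLY (adjusted p = 0.959), which goes against the shSLY label, and no probe is named Slx or Slxl1. The arrays low in Sly are headed shSLY 1 and 2 in the non-normalized table, and the arrays labelled shSLY here are headed wildtype 3 and 4. Which labels are right was not settled. Each direction below, and each slide in the model, therefore belongs to arrays as labelled. Of 14 round spermatid markers with a probe, 13 were detected, Tssk1 being the exception.

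Transcripts of most meiotic genes on the list were detected in the round spermatid fraction. To be tested, a probe needed a detection p-value under 0.01 in 2 or more of the 8 non-normalized columns. Of these columns, 2 match no series matrix column. Over the whole array, 9451 of 19057 genes had a probe that passed. Of the 25 members that passed, 22 were detected in all 8 columns, Msh5 and Atm in 7 and Brca1 in 3. Every cohesin member with a probe was detected: Smc1b and Stag3, which encode meiotic subunits, and Rec8, the meiotic kleisin. All 4 crossover genes were detected as well, namely the MutS and MutL homologues Msh4, Msh5 and Mlh3 and the X-linked Tex11. Of the 8 division genes with a probe, 7 were detected, and the exception was the cyclin gene Ccnb2.

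Another 11 members with a probe were below this limit. Sycp3, an axis component of the synaptonemal complex, and Tex12, one of its central element genes, were detected in 0 columns. The same was true of Dmc1, the meiotic strand exchange gene, of Hormad1, of Tex15, of the signalling genes Atr, Mdc1 and Topbp1, of Ccnb2 and of Mybl1, the transcription factor of the pachytene stage. Trip13, an ATPase that acts on HORMA proteins, was detected in 1 column. A probe without signal says only that this probe did not report the transcript. Rad21l, a cohesin kleisin gene, and Ccnb1, a cyclin gene, had no named probe here.

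**Figure D1:**
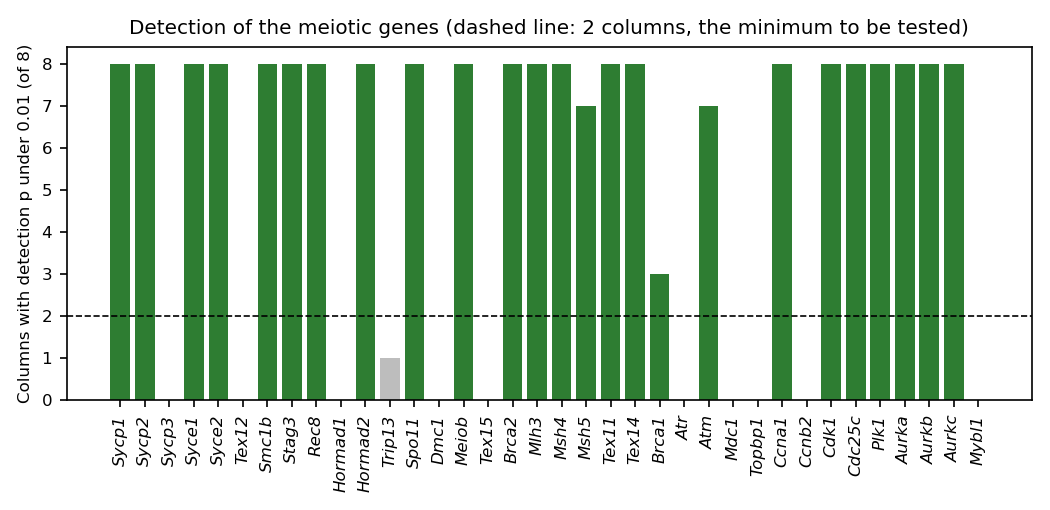
Number of the 8 non-normalized columns, on the vertical axis, in which the probe of each of 36 genes had a detection p-value under 0.01. Green bars mark the 25 tested genes, and Brca1 with 3 columns is the lowest of them. Trip13, in grey, has 1 column, and genes with no bar have 0.

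Promoters of 3 division genes are shown because these genes encode the kinases that carry cells through the meiotic divisions and because they share an element. CDK1 is the cyclin-dependent kinase that triggers entry into division, and PLK1 and Aurora A act at the spindle poles. The sequences run 5′ to 3′ from 250 bases before to 50 after the gene's start, are RefSeq's for GRCm38.p6, and lie at chr2:172370521-172370820 (minus strand), chr7:122159185-122159484 (plus strand) and chr10:69352863-69353162 (minus strand). Capitals mark the cell cycle genes homology region, searched as the word TTTGAA or as its variant form TTCGAA here, and the MYB element. The MYB element was searched as TAACTG or with another ending as TAACGG, and likewise with a first C as CAACTG or with that ending as CAACGG. Each word was searched on both strands, and the marked words do not overlap.
Aurka: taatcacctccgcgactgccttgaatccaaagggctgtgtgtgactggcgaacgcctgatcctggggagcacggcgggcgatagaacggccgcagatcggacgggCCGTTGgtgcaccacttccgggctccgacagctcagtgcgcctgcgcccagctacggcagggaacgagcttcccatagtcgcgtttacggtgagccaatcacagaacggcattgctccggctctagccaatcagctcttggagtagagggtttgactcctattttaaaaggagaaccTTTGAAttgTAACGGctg
Plk1: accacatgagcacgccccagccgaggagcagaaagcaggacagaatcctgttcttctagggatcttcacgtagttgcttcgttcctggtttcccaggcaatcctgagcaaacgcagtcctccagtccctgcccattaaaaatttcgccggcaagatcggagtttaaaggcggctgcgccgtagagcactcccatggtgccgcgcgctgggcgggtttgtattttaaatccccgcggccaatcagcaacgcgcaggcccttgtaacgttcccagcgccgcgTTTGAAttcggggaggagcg
Cdk1: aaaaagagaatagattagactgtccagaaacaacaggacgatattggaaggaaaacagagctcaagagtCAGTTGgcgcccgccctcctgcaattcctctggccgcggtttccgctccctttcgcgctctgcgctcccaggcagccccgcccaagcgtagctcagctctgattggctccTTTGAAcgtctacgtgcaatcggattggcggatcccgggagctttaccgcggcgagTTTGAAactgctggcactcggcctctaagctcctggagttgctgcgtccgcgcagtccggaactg

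The homology region words occurred 32 bases after the start in Aurka, 30 after it in Plk1, and at -71 and -15 in Cdk1. Of the other division genes with a promoter, Ccnb2 held such words, while Aurkc, Ccna1 and Ccnb1 did not. Of 31 members with a promoter in the table, 11 held one of these words, against 19.4% of 27025 genes. The MYB words were in 12 of the 31 members, against 28.2% of genes, and the full cAMP response element TGACGTCA was in 1 member, Brca2, against 1.88%. A match is a description of the letters and not of a bound site.

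**Figure D2:**
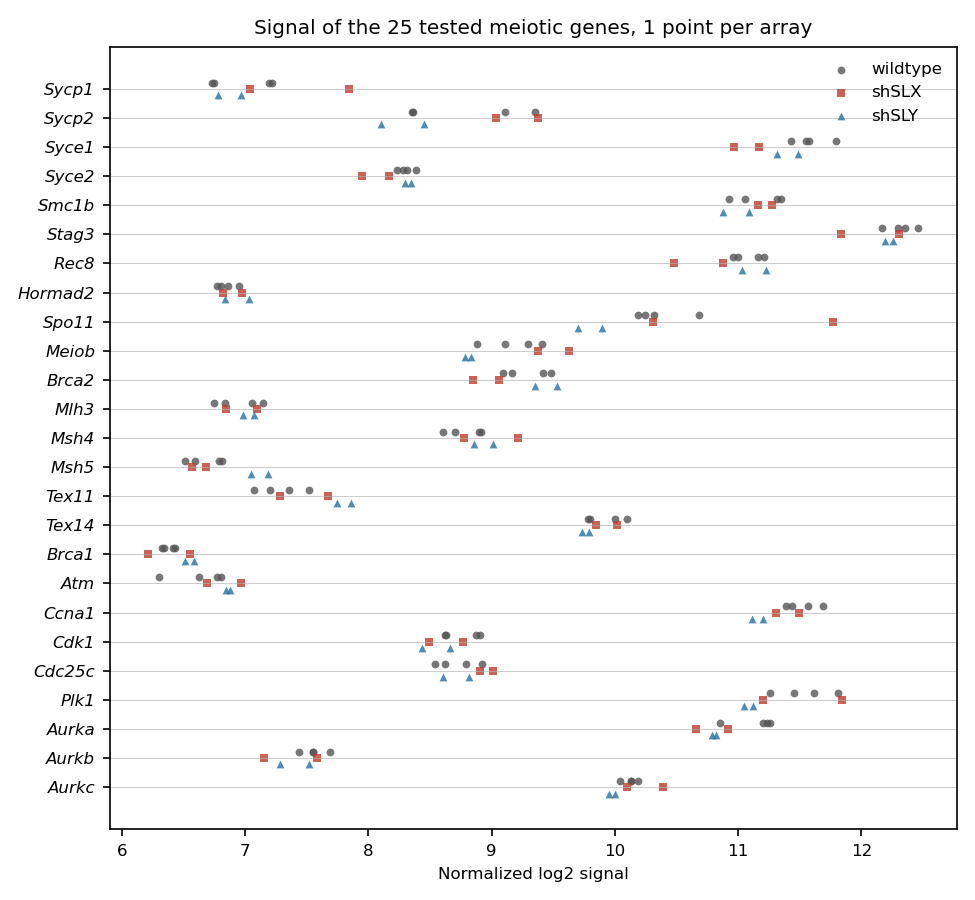
Normalized log2 signal (horizontal axis) of each of the 25 tested genes in 4 wildtype, 2 shSLX and 2 shSLY arrays, 1 point per array. Levels are to be read along a row, since different probes have no common scale. In Spo11 1 of the shSLX arrays lies at 11.77, apart from the other arrays, and in Sycp2 the wildtype arrays form separate pairs.

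Wildtype arrays themselves differed between pairs. Wildtype 3 and 4 shared a slide, while wildtype 1 and 2 lay on different slides. Sycp2, which encodes a lateral element protein of the synaptonemal complex, gave 8.36, 8.35, 9.11 and 9.35 in wildtype 1 to 4, so wildtype 3 and 4 lay above wildtype 1 and 2 by 0.87. Sycp1, the transverse filament gene, gave 6.75, 6.73, 7.20 and 7.22, with the same order of the pairs. Meiob, whose product binds single-stranded DNA in recombination, gave 9.11, 8.88, 9.41 and 9.30. The median size of the difference between the pairs was 0.25 over the 25 members, against 0.15 over all 16572 probes. Wildtype 1 and 2 lay above wildtype 3 and 4 without overlap in 6 members and below them in 13 (over all probes 34.1% and 29.7%). Among the 13 were Smc1b, Spo11, Msh4 and Plk1, and among the 6 were Brca2, Rec8, Tex11 and Atm. The source of the split between the pairs was not tested. The difference given for each gene below is the one within slides.

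No member passed the test in the shSLX arrays. Adjusted over all probes, 0 of 25 members were higher and 0 lower (limma, adjusted p of 0.101 or more), where 2.41% of all 16572 probes passed, 2.19% higher and 0.223% lower. At an unadjusted p under 0.05 there were 4 members, 2 higher and 2 lower, against 17.2% of all probes, 8.92% higher and 8.27% lower. The members' median log2 fold change was -0.11, with 9 of 25 above 0, against -0.018 and 46.2% over all probes. In the 2 arrays taken singly against wildtype 3 and 4, the members' medians were -0.067 and -0.10. By their 95% intervals, 24 of the 25 differences lay within 2-fold of wildtype and 15 within 1.5-fold, the exception to the former being Spo11. In bulk samples, fewer cells of a type and less RNA per cell cannot be told apart.

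Among the synaptonemal complex genes, Syce1 had the lowest value relative to wildtype in shSLX. Syce1 encodes a central element protein. Its signals were 11.55, 11.79, 11.43 and 11.57 in wildtype 1 to 4, 11.17 and 10.96 in shSLX 1 and 2, and 11.48 and 11.32 in shSLY 1 and 2. Both shSLX arrays lay below all 4 wildtype arrays, and 1 shSLY array did. The difference in shSLX was -0.44 ± 0.12, a 1.35-fold lower signal, with an adjusted p of 0.115 and a 95% interval of -0.71 to -0.17. Syce1 passed with the slide as a random block (-0.49, limma adjusted p = 0.0488), where 3.03% of all probes passed. It did not pass when fitted within slides (limma adjusted p = 0.206). Without shSLX 1, which leaves 1 shSLX array, its difference was -0.54. Syce2, its partner in the central element, gave 8.17 and 7.95 in shSLX, also below the wildtype values of 8.31, 8.39, 8.23 and 8.28, and its difference was -0.20 ± 0.11 with an adjusted p of 0.388. The differences were 0.23 for Sycp1 and -0.023 for Sycp2, neither past the threshold, and the Sycp1 signals of shSLX 1 and 2 were 7.84 and 7.04.

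The cohesin genes all lay below 0 in shSLX without passing. Stag3 gave 12.17, 12.30, 12.35 and 12.46 in wildtype and 11.83 and 12.30 in shSLX, so that 1 shSLX array lay inside the wildtype range and the other below it. Its difference was -0.34 ± 0.15, with an adjusted p of 0.293. Rec8 gave 10.48 and 10.88 in shSLX, below the 4 wildtype values of 11.16, 11.21, 10.96 and 11.00. The Rec8 difference was -0.30 ± 0.14 (adjusted p = 0.321) and that of Smc1b was -0.11 ± 0.11 (adjusted p = 0.641). Without shSLX 2, Stag3 and Rec8 passed as lower, in a fit where 15.1% of all probes passed.

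Of the genes that make and process breaks, Spo11 varied most and its probes disagreed. Spo11 encodes the enzyme that makes meiotic DNA breaks. The brighter of its 2 detected probes gave 10.19, 10.24, 10.32 and 10.68 in wildtype 1 to 4, 11.77 and 10.31 in shSLX 1 and 2, and 9.89 and 9.70 in shSLY 1 and 2. The first shSLX array thus lay above all other arrays and the second within the wildtype range. Its difference in shSLX was 0.54 ± 0.38, with an adjusted p of 0.488 and an interval of -0.31 to 1.40. The dimmer probe gave 8.94, 8.83, 9.20 and 9.40 in wildtype and 8.47 and 9.16 in shSLX. It was lowest in shSLX 1, the array in which the brighter probe was highest, and its difference was -0.49 ± 0.20 (adjusted p = 0.255). A single level of Spo11 in shSLX is therefore not given by these probes, and which transcripts each one detects was not analysed here.

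**Figure D3:**
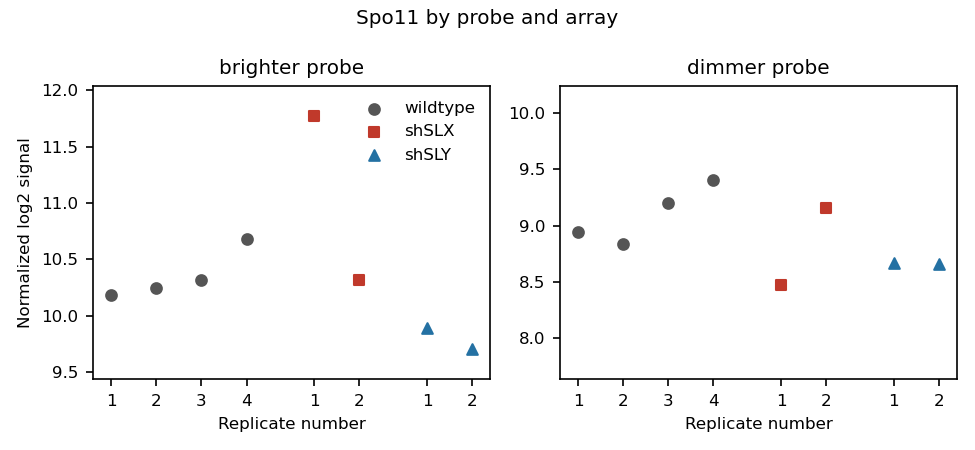
Normalized log2 signal of the brighter and the dimmer detected Spo11 probe (vertical axes of equal span) in 4 wildtype, 2 shSLX and 2 shSLY arrays, by replicate number. In shSLX 1 the brighter probe is at 11.77, the highest of its 8 values, and the dimmer probe at 8.47, the lowest of its 8.

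The other recombination genes stayed closer to wildtype in shSLX. Meiob differed by 0.15 ± 0.12 and Brca2, which loads recombinases onto broken DNA, by -0.17 ± 0.12, with adjusted p-values of 0.547 and 0.476. A second detected probe of Brca2 was at -0.082. Among the crossover genes, Tex11 gave 7.67 and 7.28 in shSLX against 7.07 and 7.20 on the same slide, both higher, yet inside or above a wildtype range that reached 7.52. The Tex11 difference was 0.34 ± 0.14 with an adjusted p of 0.26. Msh4 gave 8.70, 8.61, 8.90 and 8.91 in wildtype and 9.21 and 8.77 in shSLX, on either side of the highest wildtype value. Msh4, Msh5 and Mlh3 lay at 0.088, 0.072 and -0.13, and the 2 other detected Msh5 probes lay below 0, at -0.098 and -0.027.

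The HORMA axis and the bridge between germ cells had 1 tested gene each. Hormad2, whose product marks unpaired chromosome axes, gave 6.77, 6.81, 6.86 and 6.95 in wildtype, 6.82 and 6.98 in shSLX and 6.83 and 7.03 in shSLY, and its difference in shSLX was -0.0074 ± 0.11. Tex14, which is needed for the bridges, gave 9.79, 9.78, 10.10 and 10.00 in wildtype, 9.85 and 10.02 in shSLX and 9.79 and 9.73 in shSLY, with a difference in shSLX of -0.12 ± 0.11. In both genes the shSLX arrays overlapped the wildtype arrays.

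Of the break signalling genes, Atm and Brca1 were measured. Atm, a kinase activated by DNA breaks, gave 6.80, 6.77, 6.30 and 6.62 in wildtype and 6.97 and 6.69 in shSLX, above wildtype 3 and 4 but overlapping wildtype 1 and 2. The difference was 0.37 ± 0.14 with an adjusted p of 0.229. The other detected Atm probe was at 0.0024 ± 0.097, with an adjusted p of 0.993, so the 2 probes gave unequal values. Brca1, a dim probe, was at -0.0046 ± 0.13.

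Aurka had the lowest difference from wildtype of the division genes in shSLX. Aurka encodes Aurora A, a kinase of the spindle poles. Its signals were 10.85, 11.24, 11.26 and 11.20 in wildtype 1 to 4, 10.66 and 10.92 in shSLX and 10.82 and 10.79 in shSLY. Both shSLX arrays lay below wildtype 2, 3 and 4, while wildtype 1 lay between them. The difference was -0.44 ± 0.11, or 1.36-fold lower, with an adjusted p of 0.101 and an interval of -0.70 to -0.18. Plk1 gave 11.21 and 11.84 in shSLX against 11.26, 11.45, 11.81 and 11.61 in wildtype, so its shSLX arrays lay on either side of the wildtype values, and its difference was -0.19 ± 0.19. Ccna1, the cyclin of male meiosis, was at -0.16 ± 0.12 and Cdk1 at -0.12 ± 0.14. Cdc25c, the phosphatase that activates CDK1, was at 0.10 by one probe and 0.15 by the other. Aurkb, of the chromosomal passenger complex, lay at -0.25 ± 0.15, and its germ cell relative Aurkc at 0.082 and 0.049 by 2 probes. Adjusted p-values of all 8 probes of these 6 genes were 0.429 to 0.851.

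**Figure D4:**
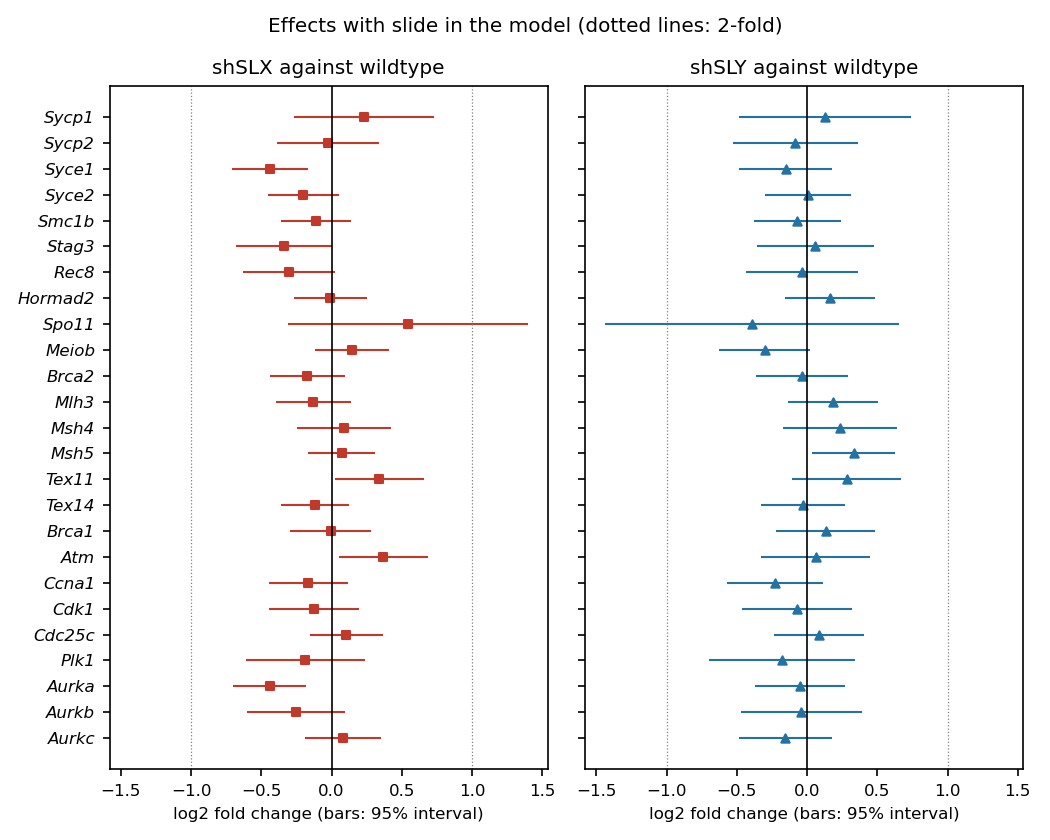
Log2 fold change (points) and 95% interval (bars) of the 25 tested genes in shSLX and in shSLY against wildtype, from the fit with slide in the model. The intervals of Syce1, Aurka, Atm and Tex11 exclude 0 in shSLX and that of Msh5 does in shSLY, but no gene passes after adjustment over all probes. Spo11 has the widest interval in both panels.

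The calls in shSLX changed when 1 array was left out. Without shSLX 2, 9 members passed: Sycp1, Spo11, Tex11 and Atm as higher and Stag3, Rec8, Plk1, Aurka and Aurkb as lower, where 15.1% of all probes passed. Without shSLX 1 the single member that passed was Syce1, where 3.7% of all probes passed, and in either case the remaining array is assumed to vary like the other groups. In shSLX, Plk1 and Aurkb were each lower in array 1 than in array 2 (7.15 and 7.58 for Aurkb), as were Stag3 and Rec8.

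No member passed in the shSLY arrays either. Adjusted over all probes, 0 of 25 members were higher and 0 lower (limma, adjusted p of 0.468 or more), where 0.712% of all probes passed, 0.579% higher and 0.133% lower. At an unadjusted p under 0.05 there was 1 member, which was higher, against 8.91% of all probes, 4.45% higher and 4.46% lower. The members' median was -0.034 with 11 of 25 above 0, against -0.013 and 47.1% over all probes. By their 95% intervals, 24 of 25 differences lay within 2-fold of wildtype and 18 within 1.5-fold, Spo11 again being the exception to the former. Each difference here rests on wildtype 1 as the control array.

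Msh5 had the highest difference from wildtype of the tested members in shSLY. Msh5 encodes a subunit of the MutS complex that stabilizes crossover intermediates, with MSH4 as its partner. The probe gave 6.79, 6.81, 6.51 and 6.59 in wildtype and 7.19 and 7.05 in shSLY, with both shSLY arrays above all 4 wildtype arrays. The difference was 0.33 ± 0.13, with an adjusted p of 0.468 and an interval of 0.035 to 0.63. A second Msh5 probe was at 0.43 ± 0.14; the other detected probe was at -0.098, with adjusted p-values of 0.328 and 0.938. All 4 crossover genes lay above 0, with Tex11 at 0.28 ± 0.17, Msh4 at 0.23 ± 0.18 and Mlh3 at 0.18 ± 0.14, and none passed. Tex11, the X-linked member, gave 7.86 and 7.74 in shSLY, above the highest wildtype value of 7.52.

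The 3 tested break and strand exchange genes lay below 0 in shSLY by their brightest probes, and a second Brca2 probe did not. Spo11 was at -0.39 ± 0.46 by its brighter probe and -0.28 ± 0.24 by the dimmer one, and here both probes lay on the same side. Its shSLY signals of 9.89 and 9.70 were below all 4 wildtype values by the brighter probe. Meiob gave 8.79 and 8.83, also below the wildtype values of 9.11, 8.88, 9.41 and 9.30, and differed by -0.30 ± 0.14 with an adjusted p of 0.603. Brca2 was at -0.038 and, by its second probe, at 0.025.

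In counts, 4 members (Msh5, Tex11, Brca1 and Atm) lay above all 4 wildtype arrays in both shSLY arrays, where 16.6% of all probes did so. The other detected Atm probe did not share this: it gave 6.55 and 6.63 in shSLY against 6.68, 6.54, 6.37 and 6.41 in wildtype, a difference of -0.083 ± 0.12. A further 6 (Spo11, Meiob, Ccna1, Plk1, Aurka and Aurkc) lay below them, where 19% of all probes did so. In shSLX 0 members lay above all 4 wildtype arrays (11.7% of all probes) and 4 below (Syce1, Syce2, Rec8 and Brca2; 13.4% of all probes).

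Against the wildtype of their own slide, both shSLX arrays lay higher in 2 members, Tex11 and Atm (21.6% of all probes), and lower in 7 (24.9%), among them Syce1, Syce2, Aurka and the cohesin genes. Both shSLY arrays lay above wildtype 1 in 9 members (35.1%), the 4 crossover genes among them, and below it in 8 (40.8%), among them Syce1, Spo11, Meiob, Ccna1 and Plk1.

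None of the remaining members passed in shSLY. Syce1 was at -0.15 ± 0.15, Sycp2 at -0.084, Sycp1 at 0.13 and Syce2 at 0.0079. The cohesin genes Stag3, Rec8 and Smc1b were at 0.06, -0.034 and -0.07, and their adjusted p-values were 0.96 to 0.989. Of the division genes, Ccna1 was at -0.23 ± 0.15, Plk1 at -0.18 ± 0.23, Aurkc at -0.15 by one probe and -0.29 by the other, Cdk1 at -0.074, Aurka at -0.05, Aurkb at -0.04 and Cdc25c at 0.085 and 0.032 by its 2 probes. Ccna1 gave 11.12 and 11.20 in shSLY against 11.39, 11.57, 11.44 and 11.69 in wildtype. Hormad2 was at 0.16, Tex14 at -0.031, Brca1 at 0.13 and Atm at 0.061 by its brighter probe.

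**Figure D5:**
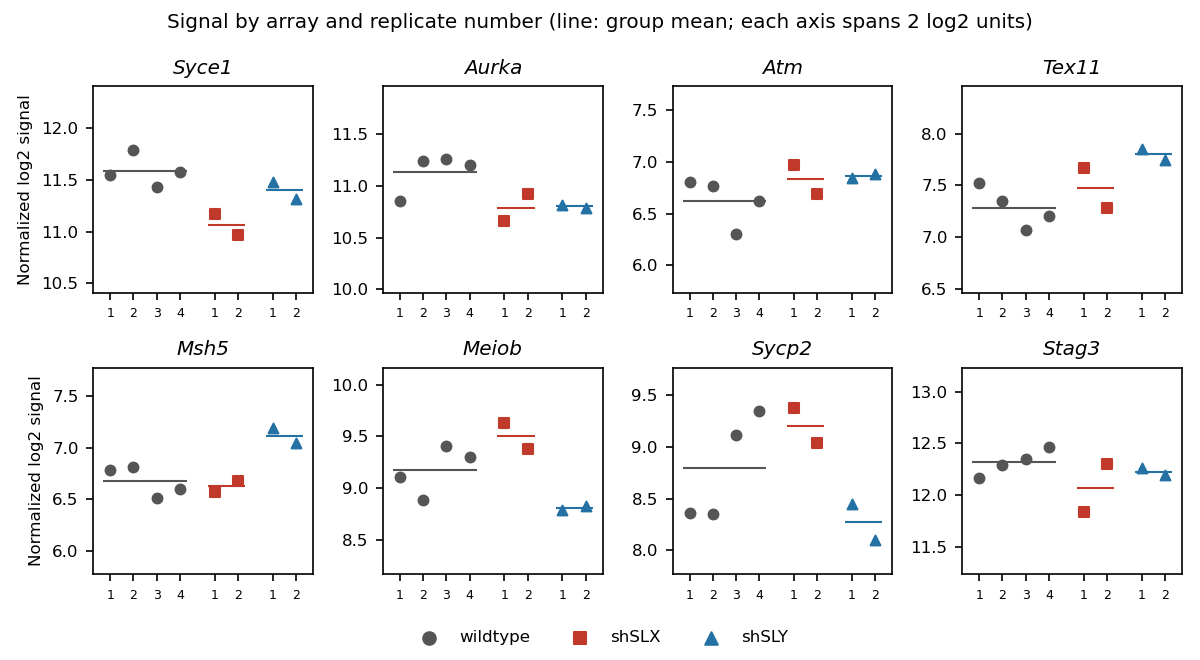
Normalized log2 signal of 8 genes in each of the 8 arrays, by replicate number, with a line at each group mean; every vertical axis spans 2 log2 units. Syce1 in shSLX lies below and Msh5 in shSLY above all 4 wildtype arrays, and in Sycp2 wildtype 3 and 4 lie with the shSLX arrays of their slide while wildtype 1 and 2 lie with the shSLY arrays.

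The difference between the shSLX and shSLY effects was tested in the same fit. None of the 25 members passed (adjusted p of 0.323 or more), where 1.8% of all probes did, 1.17% higher and 0.628% lower. At an unadjusted p under 0.05 there was 1 member, Meiob, which was higher, against 13.7% of all probes, 7.74% higher and 5.97% lower. The median of the members was -0.086, with 9 of 25 above 0, against 49.1% of all probes. Meiob was higher in the shSLX effect than in the shSLY effect by 0.45 ± 0.18, with an adjusted p of 0.323 and an interval of 0.032 to 0.87. In Spo11 the difference by the brighter probe was 0.93 ± 0.59 and by the dimmer probe -0.20 ± 0.31. Aurka differed by -0.39 ± 0.18 and Stag3 by -0.40 ± 0.24, with adjusted p-values of 0.391 and 0.522. Meiob, Spo11 and Msh5, 3 of the 25 members, passed when slide was left out of the model, where 14.8% of all probes did. In that fit wildtype cancels, and the shSLX arrays are compared directly with shSLY arrays from another slide.

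Other genes of the pathway were compared in the same way. Of 38 further pairing and recombination genes, 27 had a probe, 16 were tested and 0 passed in either direction in shSLX or in shSLY. Their medians were -0.025 and 0.058. In shSLX the values furthest from 0 were those of Cntd1, a crossover factor (0.25 ± 0.14), and Rad51ap2 (0.14 ± 0.10) above it, and of Sun1, which tethers telomeres to the nuclear envelope (-0.21 ± 0.097), and Psmc3ip, a strand exchange cofactor (-0.18 ± 0.10), below it. In shSLY they were Meioc (0.24 ± 0.14) and Blm, a helicase (0.21 ± 0.14), and on the other side Mre11a, a break-processing nuclease (-0.27 ± 0.12), and Sun1 (-0.18 ± 0.12).

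Of 41 further division genes, all had a probe and 26 were tested, and 0 passed in either direction in shSLX or in shSLY. In shSLX 9 of the 26 lay above 0, with a median of -0.14, and 7 had an unadjusted p under 0.05, all 7 below 0, against 8.27% of all probes in that direction. The lowest were Ccnd3, a D-type cyclin gene (-0.49 ± 0.19, adjusted p = 0.234), and Espl1, the separase gene (-0.42 ± 0.15, adjusted p = 0.198). The checkpoint genes Bub1b and Bub3 were at -0.36 ± 0.11 and -0.30 ± 0.098, with adjusted p-values of 0.144 and 0.174. The highest were Ccne2 (0.37 ± 0.22) and Mad2l1 (0.22 ± 0.16). In shSLY the median was 0.0084, with Cdk2 (0.52 ± 0.19) and Mad2l1 (0.30 ± 0.20) highest and Smc2 (-0.33 ± 0.14) and Cdc20 (-0.29 ± 0.13) lowest.

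Markers of other cells were measured beside these genes. Of 9 spermatocyte markers with a probe, 7 were tested and 0 passed in either comparison. Their summed deposited intensity was 86696 to 98749 in wildtype, 90961 to 93920 in shSLX and 88047 to 89949 in shSLY. Such a sum mostly reflects the brightest probes, here Ldhc and Hspa2. How much of it came from the round spermatids themselves was not tested, so it does not measure how many spermatocytes were present. All 7 differences lay below 0 in shSLX (median -0.097) and 5 above 0 in shSLY (median 0.025). Ldhc is counted among these 5 at 3.6e-15. Its normalized value was the same, 15.38, in wildtype 1, 3 and 4, shSLX 1 and both shSLY arrays. Of 12 spermatogonial markers, 5 were tested, with summed intensities of 598 to 804 in wildtype, 746 to 804 in shSLX and 786 to 834 in shSLY. The spermatogonial gene Sohlh1 passed as higher in shSLX (0.73 ± 0.11, adjusted p = 0.0121), while Stra8, Zbtb16 and Dmrt1 were below the detection limit. Stromal markers summed to 974 to 984 in shSLX against 447 to 716 in wildtype and 705 to 840 in shSLY, with 3 of 4 tested passing as higher in shSLX (Dcn, Acta2 and Myh11). The other tested marker, Vim, was at -0.16 in shSLX. Col1a1, Col1a2, Col3a1 and Pdgfra, also on this list of 8, were below the detection limit. Immune and blood markers summed to 1191 to 1552 in shSLX, 844 to 3107 in wildtype and 3214 to 3952 in shSLY. In wildtype 1 and shSLY the brightest probes of this sum were those of haemoglobin, Hbb-bs and Hba-a1. Hbb-bs gave 9.99, 8.29, 7.05 and 6.85 in wildtype 1 to 4, 7.82 and 7.17 in shSLX and 9.97 and 10.48 in shSLY. Of the 7 tested, 3 passed as higher in shSLX (Lyz1, Lyz2 and C1qc). Wildtype 1 lay above both shSLX arrays in Lyz1 (9.21 against 9.03 and 8.68) and C1qc, and between them in Lyz2. Adgre1 was at -0.051 in shSLX, and C1qa and Ptprc were below the detection limit. Sertoli markers summed to 578 to 592 in shSLX, 596 to 885 in wildtype and 872 to 913 in shSLY, with 0 of 4 passing, and of the Leydig list Insl3 alone was detected. The part of these cells in the values of the meiotic genes was not tested.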

How the data were processed

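RNA of round spermatids was measured, after elutriation of testis cells per the labels' protocols, on Illumina bead arrays. The first deposited table holds non-normalized intensity and detection p-values, per the file headers. The series matrix holds the authors' intensity values after a normalization whose method was not stated. The submitters' processing notes name BeadStudio and GenomeStudio. Series matrix values of 45281 probes were corrected with normexp (offset 50), quantile-normalized and converted to log2. The 16572 probes with detection p under 0.01 in 2 or more of 8 columns were fitted with group and slide (limma 3.58.1, R 4.3.3, lmFit and eBayes, 3 residual and 5.69 prior degrees of freedom), with Benjamini-Hochberg adjustment over all of them and a threshold of 0.05. The fit was tested on simulated data. Between 13572 and 16113 probes were detected per column, and precision is limited by how few arrays there are. Names came from the platform annotation, updated through RefSeq's GRCm38.p6 gene table.

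The members and lists were chosen with earlier results of these data known. All 38 members are accounted for. Values by array are given for the 2 highest and 2 lowest in each knockdown comparison, those with unadjusted p under 0.05 and the member of each role with the highest mean signal, and for others, Sycp2 among them, chosen after their values were seen. Further pathway genes are named where past the threshold, or else the 2 furthest from 0 on each side, and Bub1b and Bub3 were chosen after their values were seen. Deviations of same-numbered arrays from their group means correlated at -0.084 to 0.22. With 2 arrays per construct these values are not independent, and the wildtype mean mixes slides. They therefore cannot decide whether replicate numbers pair the arrays.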

Additional observations from a re-analysis of the deposited data

Results flagged for a closer look

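Aurka stood apart in 1 wildtype array. Its normalized log2 signals were 10.85, 11.24, 11.26 and 11.20 in wildtype 1 to 4, so wildtype 1 lay below the other 3. The gap between wildtype 1 and the nearest other array, divided by the range of the 4, was 0.847, above Dixon's 95% critical value for 4 arrays. Of the 25 tested members, 1 was singled out in this way, and chance does so in about 1 of 20 groups. Wildtype 1 is the array that the shSLY arrays are set against within their slide, where their Aurka signals were 10.82 and 10.79.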

How the results depend on the processing

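With 2 arrays per construct and the control arrays of 1 slide behind each difference, the number of arrays limits what can be detected. No member passed in any of the 3 comparisons without normexp, with a normexp offset of 16, with probes detected in all 8 columns, without the filter on dim probes, with 1 probe per gene, with the mean of a gene's probes, or, for the shSLX and shSLY comparisons, fitted within slides. Calls appeared when the slide was handled otherwise. With slide as a random block, 1 member passed in shSLX (3.03% of all probes). Without a slide term, 3 passed for the shSLX effect minus the shSLY effect (Spo11, Meiob and Msh5), against 14.8% of all probes. Whether the replicate numbers pair the arrays was not settled. A replicate block in place of slide gave 6 members in shSLX (Sycp1, Sycp2, Syce1, Rec8, Meiob and Brca2), 0 in shSLY and 6 for the difference. The shares of all probes were 12.7%, 2.02% and 26.4%. With the non-normalized values taken under their own headers, 2 passed in shSLX, Sycp2 at 1.14 and Msh5 at -1.06, both opposite in sign to their values above, 13 of 25 members had the other sign, and 16.2% of all probes passed. Without a slide term and wildtype 1, 1 passed in shSLY (Tex11) and 2 for the difference, against 4.02% and 14.8% of all probes. Without a slide term and wildtype 3 and 4, an alternative chosen after seeing the data, 4 passed in shSLX and 6 for the difference, against 12.6% and 27.1% of all probes. The replicate block also gives wildtype 3 and 4 no weight, because no other group has replicates 3 and 4. These 2 fits therefore give the same differences. Sycp2 in shSLX was 0.85 in both, against -0.023 in the fit above. The 2 values rest on different wildtype arrays: in Sycp2, wildtype 3 and 4 lay 0.87 above wildtype 1 and 2. The source of that split, and of the other changes, was not tested.

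The members' median in shSLX was 0.012 without a slide term, -0.0061 with the random block, 0.046 with the replicate block, -0.015 without the filter, 0.17 under the other headers, -0.012 without slide and wildtype 1, and 0.046 without slide and wildtype 3 and 4. In shSLY it was -0.10 without a slide term, 0.042 under the other headers and -0.14 without slide and wildtype 1. For the difference it was -0.022 with the random block and 0.079 under the other headers. It was -0.013 without a slide term, with the replicate block and in both fits that also left out wildtype arrays. The equality of the last values is fixed by design. Wildtype cancels in those fits, which leaves shSLX minus shSLY arrays, and these lay on different slides. Leaving out 1 array at a time gave 0 to 9 members in shSLX, 0 in shSLY and 0 to 3 for the difference, the highest counts without shSLX 2, where 15.1% and 10.2% of all probes passed. The medians were then -0.11 to 0.00067 in shSLX, -0.034 to 0.036 in shSLY and -0.14 to -0.034 for the difference. In the reported fit 2.41%, 0.712% and 1.8% of all 16572 probes passed in shSLX, in shSLY and for the difference. Alternatives with all arrays tested from 9451 genes to 45281 probes, so shares are compared: they ran from 1.06% to 16.2%, from 0.103% to 3.83% and from 0.127% to 26.4%. With 1 array left out they ran from 0.259% to 15.1%, from 0.0302% to 3.11% and from 0.0784% to 10.2%.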
